A study of Homo sapiens with 30 samples.

Results

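A set of 10 genes that carry fatty acids into, through and out of lipid droplets was followed in lineages of the human breast cancer line MDA-MB-231. The genes were ACSL1, ACSL3, ACSL4, ACSL5, DGAT1, DGAT2, PLIN2, PLIN3, PNPLA2 and CPT1A, chosen by name, and all 10 were found among the 26475 genes of each of 2 count tables. All 10 also passed the filter on low counts in both tables.

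RNA was sequenced from 30 libraries in 10 groups of 3. MDA-MB-231 is a mesenchymal line that lacks hormone receptors, and the libraries come from numbered lineages of it. In the first table (18 libraries), lineages 22, 35 and 45 were each recovered by cell sorting after 15 days in a co-culture of 6 members, passaged through a bottleneck every 3 days, and each was also grown alone for about 24 h (isolation). In the second table (12 libraries), lineages 03, 10 and 13 and a group named Pop were grown alone in the same way; the sources used here do not explain Pop. All groups share one medium, RPMI-1640 with 10% dialyzed serum and 2 mM glutamine at 37 degrees. The identity of the other co-culture members and whether the libraries within a group are separate cultures are not given, so p-values measure the spread between these libraries, which may be technical. Co-culture and isolation also differ in days of culture, in sorting and in RNA extraction kit, and these cannot be told apart from the co-culture itself.

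A fatty acid must be joined to coenzyme A before a cell can use it, and the long-chain acyl-CoA synthetases of the ACSL family do this. Activated fatty acids can be built into triglyceride, whose last step is made by the diacylglycerol acyltransferases DGAT1 and DGAT2, and triglyceride is kept in lipid droplets coated by perilipins such as PLIN2 and PLIN3. PNPLA2 (adipose triglyceride lipase) opens the breakdown of stored triglyceride, and CPT1A, at the outer mitochondrial membrane, commits fatty acids to oxidation. ACSL4 prefers arachidonic acid and related polyunsaturated fatty acids, and is known for making cells prone to ferroptosis.

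The genes lie apart from each other in the genome (GRCh38, GENCODE). ACSL1 is at chr4:184755595-184826818 (minus strand), ACSL3 at chr2:222860934-222944639 (plus) and ACSL4 at chrX:109624244-109733403 (minus). ACSL5 is at chr10:112374018-112428380 (plus), PLIN2 at chr9:19108375-19149290 (minus) and PLIN3 at chr19:4838341-4867768 (minus). Chromosome 11 holds DGAT2 (chr11:75759512-75801535, plus), PNPLA2 (chr11:818902-825573, plus) and CPT1A (chr11:68754620-68844410, minus). DGAT1 overlaps the oppositely oriented gene HSF1 by 139 bases and ACSL5 overlaps the oppositely oriented ZDHHC6 by 3953 bases. The library kit keeps strand, but the strand setting of the counting is not given in the sources used here, so reads of these overlaps may be shared.

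The promoter windows of ACSL1, ACSL3 and PLIN2 are shown because these genes were the members higher in co-culture in all 3 lineages, and that of ACSL5 because it was the ACSL gene lower in 2 of them. Each runs from 250 bases before to 50 after the RefSeq start (GRCh38.p14, 5′ to 3′ on the gene's strand). Capitals mark matches to motifs searched on both strands. The GC box was searched as GGGCGG and the palindromic E-box as CACGTG. The CCAAT box and the TATA box (TATAAA) were searched by those letters, and the sterol response element by TCACNCCAC; no motif contains another. The windows are chr4:184825919-184826218 for ACSL1, chr2:222860786-222861085 for ACSL3, chr9:19127443-19127742 for PLIN2 and chr10:112375018-112375317 for ACSL5.
ACSL1: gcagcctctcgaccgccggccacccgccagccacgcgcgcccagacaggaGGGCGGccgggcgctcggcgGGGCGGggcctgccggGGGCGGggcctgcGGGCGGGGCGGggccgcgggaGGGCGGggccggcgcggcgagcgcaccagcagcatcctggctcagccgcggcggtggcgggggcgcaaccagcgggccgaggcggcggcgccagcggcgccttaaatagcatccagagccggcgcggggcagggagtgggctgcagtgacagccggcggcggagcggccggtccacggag
ACSL3: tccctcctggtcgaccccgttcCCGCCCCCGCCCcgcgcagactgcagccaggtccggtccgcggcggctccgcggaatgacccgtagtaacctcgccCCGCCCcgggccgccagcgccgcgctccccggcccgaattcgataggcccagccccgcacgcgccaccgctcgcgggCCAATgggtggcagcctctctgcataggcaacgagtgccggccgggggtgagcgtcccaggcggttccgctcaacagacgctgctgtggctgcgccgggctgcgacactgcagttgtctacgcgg
PLIN2: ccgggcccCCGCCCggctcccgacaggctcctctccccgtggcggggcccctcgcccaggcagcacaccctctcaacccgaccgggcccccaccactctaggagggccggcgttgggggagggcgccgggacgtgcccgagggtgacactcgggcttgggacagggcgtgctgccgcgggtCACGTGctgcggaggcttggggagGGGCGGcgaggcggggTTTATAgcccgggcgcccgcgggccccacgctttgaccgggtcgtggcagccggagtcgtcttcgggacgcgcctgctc
ACSL5: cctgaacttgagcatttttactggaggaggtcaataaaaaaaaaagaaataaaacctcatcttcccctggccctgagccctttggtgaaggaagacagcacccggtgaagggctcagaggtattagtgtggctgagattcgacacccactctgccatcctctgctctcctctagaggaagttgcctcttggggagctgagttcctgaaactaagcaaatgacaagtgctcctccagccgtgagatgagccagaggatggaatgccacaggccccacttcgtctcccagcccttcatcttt
ACSL1 and ACSL3 have GC boxes, and ACSL3 also a CCAAT box. PLIN2 has GC boxes, an E-box 69 bases before the start and, read on the other strand, the letters of the TATA box. The ACSL5 window holds none of these letters, with 51.0% G and C and 4 CpG against 82.3% and 47 in ACSL1, 74.0% and 41 in ACSL3 and 76.7% and 36 in PLIN2. Of 27305 RefSeq promoters of this length, 44.6% hold the GC box, 35.7% the CCAAT box, 7.43% the E-box, 12% the TATA box and 1.15% the sterol response element. Of the 8 members with a window in the table, 6 have a GC box, and the sterol response element letters are in that of PNPLA2 alone. The PPAR response element letters are in no member's window, and 0.022% of the RefSeq promoters hold them. These matches describe letters and are no evidence that a factor binds.

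A library held 29.8 to 38.8 M estimated counts in the first table, and 28.1 to 35.4 M in the second. VIM, CD44, AXL and CAV1, which MDA-MB-231 expresses strongly, summed to between 5290 and 9960 CPM (counts scaled to one fixed library total) in every library, while ESR1 and PGR stayed at or below 0.101 CPM on group average. CDH1 and EPCAM, also listed as low or absent in this line, had group means of 0.0188 to 1.52 CPM and 4.87 to 16.4 CPM. Markers of adipocytes, cells whose purpose is to store lipid, summed to between 0.0585 and 0.471 CPM, with none of 5 at 1 CPM in any group. The leukocyte list summed to between 45.2 and 361 CPM through LAPTM5 and CD68, while CD3E did not pass 0.00954 CPM on group average, and the fibroblast list summed to between 7.59 and 22.3 CPM. The endothelial list summed to between 7.01 and 152 CPM, mostly ESAM. In isolation 35 the leukocyte list was at 45.2 to 70.8 CPM and the endothelial list at 7.01 to 8.12 CPM, both lowest of the first table, against 173 to 191 CPM and 126 to 137 CPM in co-culture 35. Across 14570 genes the co-culture 35 libraries correlated less with isolation 35 (mean r of 0.924) than with isolation 45 (0.964) or isolation 22 (0.95), whereas co-culture 22 correlated most with isolation 22 (0.962) and co-culture 45 with isolation 45 (0.97). Isolation 35 was also the least correlated isolation group for co-culture 22 (0.921) and co-culture 45 (0.928). The libraries labelled isolation 35 thus stand apart before any result, while those labelled co-culture 35 are nearer the other lineages. The values below keep lineages 22 and 45 separate from lineage 35. Co-culture 22 replicate 3 had 19106 genes above 0, the most of the 3 co-culture groups.

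Most of the 10 genes differed between co-culture and isolation, mostly by less than 2-fold. In lineage 22, 8 of 10 passed the test and are called changed (adjusted p under 0.05 over all genes), 4 higher and 4 lower, while 56.9% of all genes tested passed, 27% higher and 30% lower; the count was 7 without co-culture 22 replicate 2 and 9 without co-culture 22 replicate 3. In lineage 35, 9 of 10 passed, 8 higher and 1 lower, against 65.5% of all genes, 32.7% higher and 32.9% lower. In lineage 45, 6 of 10 passed, 3 higher and 3 lower, against 41.8% of all genes, 18.6% higher and 23.2% lower. Changes of at least 2-fold were seen in 0, 3 and 0 members, against 13.7%, 23.8% and 9.4% of all genes. The counts of the 10 genes were set beside these shares with no test, and what follows gives which genes moved and which way. The median log2 fold change of the 10 genes was 0.19 in lineage 22, 0.79 in lineage 35 and 0.04 in lineage 45, beside medians of −0.04, 0.01 and −0.03 over all genes. ACSL1, ACSL3 and PLIN2 rose in all 3 lineages, as 7.77% of all genes did, and DGAT1 fell in all 3, as 10.6% of all genes did. As in any bulk sample, fewer cells expressing a gene and less RNA of it per cell cannot be told apart.

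**Figure D1:**
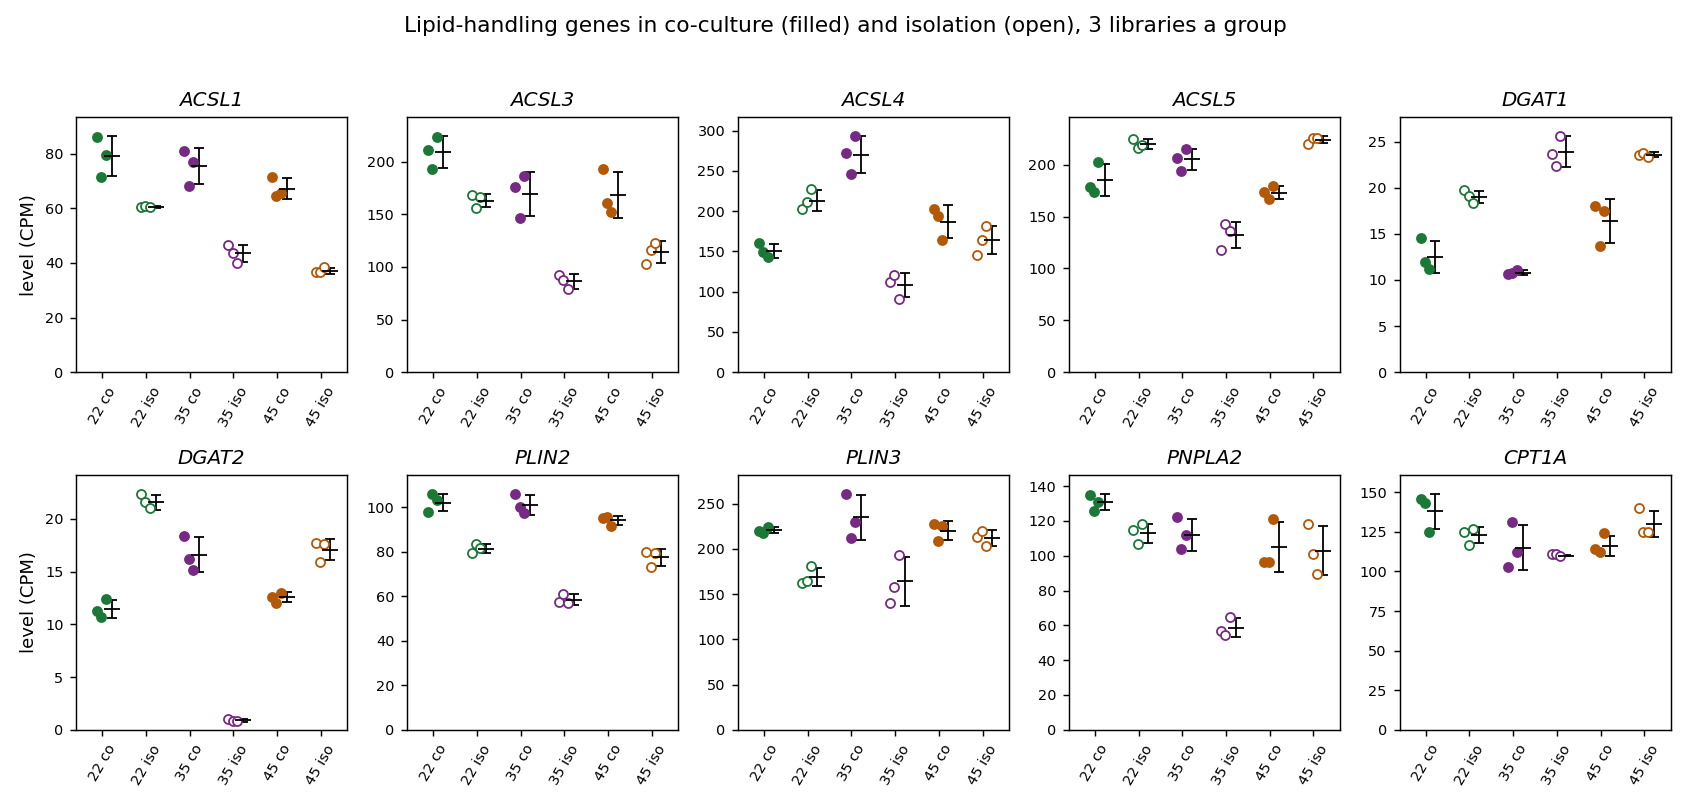
Level of each gene in CPM (y axis from 0) in co-culture (filled points) and isolation (open points) of lineages 22, 35 and 45, 1 point per library, with the mean and SD of 3 libraries beside them. ACSL1 and PLIN2 were higher and DGAT1 lower in the 9 co-culture libraries than in the 9 isolation libraries, and DGAT2 was at about 1 CPM in isolation 35 alone. The share of all genes that separate co-culture from isolation libraries in this way was not counted.

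ACSL1, the synthetase best known for feeding both triglyceride synthesis and oxidation, rose in each lineage. Its level was 86.1, 71.5 and 79.6 CPM in co-culture 22, against 60.3, 61 and 60.5 CPM in isolation 22. It was 81.1, 68.2 and 77.0 CPM in co-culture 35, against 46.5, 43.7 and 40.1 CPM in isolation 35. In lineage 45 it was 71.6, 64.5 and 65.5 CPM in co-culture, against 36.5, 36.5 and 38.4 CPM in isolation. The groups did not overlap, and every co-culture library was above every isolation library of any lineage. How many of all genes separate in this way was not counted, here or for DGAT1 and PLIN2 below. The log2 fold changes were 0.38 ± 0.08 (SE, adjusted p = 0.000643), 0.80 ± 0.08 (adjusted p = 7.38e-08) and 0.86 ± 0.09 (adjusted p = 2.08e-07) in lineages 22, 35 and 45.

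ACSL3, a synthetase of the endoplasmic reticulum that moves onto forming droplets, also rose in each. It had 211, 193 and 223 CPM in co-culture 22, against 168, 156 and 166 CPM in isolation 22. Lineage 35 had 176, 146 and 186 CPM in co-culture, against 92.4, 87.8 and 78.7 CPM in isolation. Lineage 45 had 193, 161 and 152 CPM in co-culture, against 103, 116 and 123 CPM in isolation. Within each lineage the groups were separate, though co-culture 35 and 45 libraries reached down into the range of isolation 22. Log2 fold changes were 0.36 ± 0.10 (adjusted p = 0.00578), 0.97 ± 0.10 (adjusted p = 8.5e-08) and 0.56 ± 0.10 (adjusted p = 0.00026).

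ACSL4 moved in opposite directions. Its level was 160, 149 and 143 CPM in co-culture 22, against 202, 211 and 227 CPM in isolation 22, a log2 fold change of −0.50 ± 0.11 (adjusted p = 0.000532). In lineage 35 it was 272, 246 and 293 CPM in co-culture, against 112, 121 and 91.4 CPM in isolation, a log2 fold change of 1.32 ± 0.11 (adjusted p = 1.54e-09). In lineage 45 it was 202, 194 and 164 CPM in co-culture, against 146, 164 and 182 CPM in isolation, and the groups overlapped (log2 fold change 0.19, 95% interval −0.02 to 0.40, adjusted p = 0.163). Every co-culture 22 library was thus below every co-culture 35 library, whereas every isolation 22 library was above every isolation 35 library.

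ACSL5, which is found on mitochondria and endoplasmic reticulum, fell in lineages 22 and 45 and rose in lineage 35. It had 178, 174 and 203 CPM in co-culture 22, against 225, 216 and 219 CPM in isolation 22. It had 174, 167 and 179 CPM in co-culture 45, against 220, 226 and 226 CPM in isolation 45. In lineage 35 it had 206, 194 and 215 CPM in co-culture, against 118, 143 and 136 CPM in isolation. The 3 co-culture groups lay within 167 to 215 CPM, a narrower range than the 118 to 226 CPM of the isolation groups. That wider range came from isolation 35, at 118 to 143 CPM. For lineages 22 and 45 alone it was the reverse, with isolation libraries within 216 to 226 CPM and co-culture libraries within 167 to 203 CPM. Log2 fold changes were −0.25 ± 0.08 in lineage 22 (adjusted p = 0.00971, but 0.0557 without co-culture 22 replicate 2), 0.64 ± 0.08 in lineage 35 (adjusted p = 5.98e-07) and −0.37 ± 0.08 in lineage 45 (adjusted p = 0.000793). The overlapping ZDHHC6 had log2 fold changes of 0.54, 0.80 and 0.20 in the same lineages.

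Compared per kilobase of the annotated principal transcript, ACSL5 had the highest level and ACSL1 the lowest of the ACSL genes in all 10 groups, also with the median coding transcript length in its place; the order of ACSL3 and ACSL4 depended on the length chosen in co-culture 45 and isolation 13. The share of ACSL1 in the summed per-kilobase ACSL level was 14.3% ± 0.937 in co-culture 22 and 10.3% ± 0.257 in isolation 22 (SD, n = 3 each). It was 12.8% ± 0.272 in co-culture 45 and 7.44% ± 0.244 in isolation 45. The share of ACSL5 was 39.1% ± 1.9 in co-culture 22 and 43.6% ± 0.953 in isolation 22, and 38.6% ± 2.75 in co-culture 45 and 52.4% ± 1.88 in isolation 45. These shares did not overlap between co-culture and isolation in lineages 22 and 45. The summed level changed less: 140 ± 7.54 CPM per kb in co-culture 22 and 149 ± 2.89 in isolation 22, and 133 ± 7.53 in co-culture 45 and 127 ± 6.29 in isolation 45, with ranges that met or overlapped. In lineage 35 the summed level was 160 ± 12.4 CPM per kb in co-culture and 85.6 ± 5.14 in isolation. The ACSL1 share there was 11.9% ± 0.583 in co-culture and 12.9% ± 1.01 in isolation, with overlapping libraries, and the ACSL5 share was 37.9% ± 1.13 in co-culture and 45.7% ± 3.96 in isolation, with no overlap. With 3 libraries a group an exact permutation test cannot go below 0.1, so these shares are given without one.

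**Figure D2:**
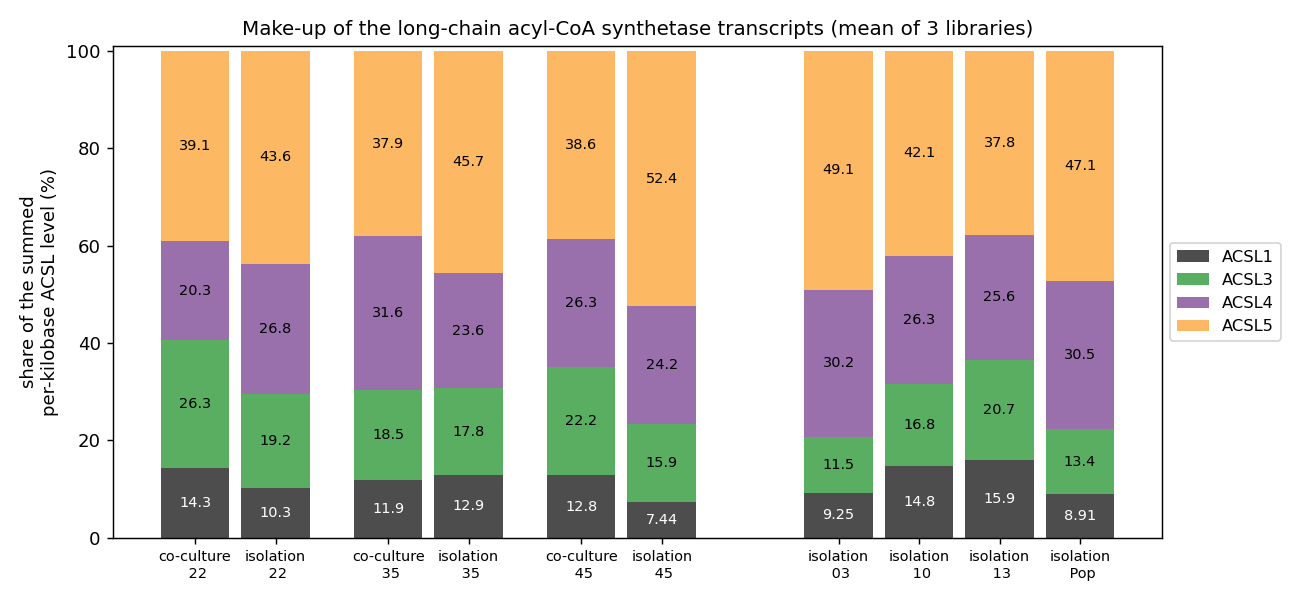
Share (%, y axis) of ACSL1, ACSL3, ACSL4 and ACSL5 in their summed per-kilobase level, as the mean of 3 libraries in each of 10 groups (x axis, the 2 tables set apart). ACSL5 is the largest block everywhere and falls to 38.6% in co-culture 45, against 52.4% in isolation 45.

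DGAT1 was the member that fell in all 3 lineages. It had 14.5, 11.9 and 11.2 CPM in co-culture 22, against 19.7, 19.1 and 18.3 CPM in isolation 22. Lineage 35 had 10.6, 10.7 and 11.1 CPM in co-culture, against 23.7, 22.3 and 25.6 CPM in isolation. In lineage 45 it had 18, 13.7 and 17.5 CPM in co-culture, against 23.6, 23.8 and 23.3 CPM in isolation. All 9 co-culture libraries were below all 9 isolation libraries. Log2 fold changes were −0.60 ± 0.11 (adjusted p = 0.000107), −1.15 ± 0.11 (adjusted p = 1.55e-08) and −0.52 ± 0.11 (adjusted p = 0.000663). HSF1, which overlaps DGAT1 on the other strand, had log2 fold changes of 0.66, 0.10 and 0.34 in lineages 22, 35 and 45.

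DGAT2, the other enzyme of the same step, fell in lineages 22 and 45 and was far higher in co-culture 35 than in isolation 35. Its level was 11.3, 10.7 and 12.4 CPM in co-culture 22, against 22.4, 21.6 and 21.0 CPM in isolation 22 (log2 fold change −0.92 ± 0.10, adjusted p = 3.01e-07). It was 12.6, 12 and 13 CPM in co-culture 45, against 17.7, 15.9 and 17.6 CPM in isolation 45 (log2 fold change −0.44 ± 0.10, adjusted p = 0.00132). In lineage 35 it was 18.4, 16.2 and 15.2 CPM in co-culture, against 1.07, 0.831 and 0.84 CPM in isolation. That is an 18.2-fold difference (log2 fold change 4.19 ± 0.13, adjusted p = 5.15e-16), and 3.03% of all genes had a larger one in this lineage. The libraries labelled co-culture 35 were inside the range of the other co-culture and isolation groups, and isolation 35 was the low group. Per kilobase, the ratio of DGAT2 to DGAT1 was 1.41 ± 0.256 in co-culture 22 and 1.72 ± 0.0131 in isolation 22, 2.34 ± 0.285 in co-culture 35 and 0.058 ± 0.00933 in isolation 35, and 1.17 ± 0.139 in co-culture 45 and 1.1 ± 0.0766 in isolation 45 (SD, n = 3 each). The size of this ratio rests on the DGAT1 transcript chosen, since its principal and median coding transcripts are 3711 and 2592 bases long, but its comparison between groups does not.

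PLIN2, the perilipin that coats droplets in most cells and is degraded when not bound to them, rose in each lineage. It had 97.9, 106 and 103 CPM in co-culture 22, against 79.3, 83.2 and 81.4 CPM in isolation 22. Lineage 35 had 106, 100 and 97.2 CPM in co-culture, against 57.2, 61.1 and 56.9 CPM in isolation. In lineage 45 it had 95.0, 95.5 and 91.6 CPM in co-culture, against 79.7, 73.0 and 79.3 CPM in isolation. The co-culture libraries of all lineages stood between 91.6 and 106 CPM, above every isolation library. Log2 fold changes were 0.33 ± 0.07 (adjusted p = 0.000317), 0.79 ± 0.07 (adjusted p = 2.81e-09) and 0.28 ± 0.07 (adjusted p = 0.00223).

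PLIN3, a perilipin that moves from the cytosol onto young droplets, rose in lineages 22 and 35. It had 220, 218 and 224 CPM in co-culture 22, against 162, 164 and 181 CPM in isolation 22 (log2 fold change 0.38 ± 0.10, adjusted p = 0.00233). In lineage 35 it had 261, 212 and 230 CPM in co-culture, against 140, 158 and 193 CPM in isolation (log2 fold change 0.52 ± 0.10, adjusted p = 0.000103). In lineage 45 the level was 220 ± 10.3 CPM in co-culture and 212 ± 8.65 CPM in isolation (SD, n = 3 each), and the 95% interval of the log2 fold change ran from −0.13 to 0.25 (adjusted p = 0.659). Isolation 45 was already at the level of the co-culture groups, 203 to 220 CPM.

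PNPLA2 rose in lineage 35. It had 122, 104 and 112 CPM in co-culture 35, against 56.8, 54.4 and 64.9 CPM in isolation 35 (log2 fold change 0.94 ± 0.11, adjusted p = 1.79e-07). The level was 131 ± 4.67 CPM in co-culture 22 and 113 ± 5.51 CPM in isolation 22 (SD, n = 3 each), a log2 fold change of 0.20 ± 0.10 that did not pass the test (adjusted p = 0.0989), though it did in a fit of these 6 libraries alone (0.0208). In lineage 45 it was 105 ± 14.3 CPM in co-culture and 103 ± 14.1 CPM in isolation, with an interval from −0.17 to 0.23.

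CPT1A passed the test in no lineage. It had 146, 143 and 125 CPM in co-culture 22, against 125, 117 and 127 CPM in isolation 22. The level was 115 ± 14.2 CPM in co-culture 35 and 110 ± 0.367 CPM in isolation 35, and 116 ± 6.15 CPM in co-culture 45 and 130 ± 8.31 CPM in isolation 45 (SD, n = 3 each). The 95% intervals of its log2 fold change were −0.004 to 0.33 in lineage 22, −0.10 to 0.23 in lineage 35 and −0.33 to 0.01 in lineage 45, with adjusted p of 0.107, 0.524 and 0.146. In lineage 22 it was called without co-culture 22 replicate 3 (adjusted p = 0.0332) and in a fit without the co-culture 35 libraries (0.0448).

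The co-culture response differed among the 3 lineages in 9 of 10 members by a test of the interaction, while 55.2% of all genes passed it; CPT1A did not (adjusted p = 0.0721). PLIN3, at an adjusted p of 0.0202, did not pass without co-culture 45 replicate 2 (0.054) or isolation 45 replicate 2 (0.0533), and CPT1A passed without co-culture 22 replicate 3 (0.0262), co-culture 35 replicate 1 (0.0366) or co-culture 45 replicate 3 (0.0484). All of these tests include the libraries labelled lineage 35. Between lineages 22 and 45 alone, the response differed in 3 of 10 members, all 3 lower in lineage 22, against 17.3% of all genes, 9.25% higher and 8.08% lower. ACSL1 rose less in lineage 22 than in lineage 45 (difference in log2 fold change −0.47 ± 0.12, adjusted p = 0.00886). ACSL4 fell in lineage 22 with no called change in lineage 45 (difference −0.69 ± 0.15, adjusted p = 0.00348). DGAT2 fell further in lineage 22 (difference −0.47 ± 0.14, adjusted p = 0.0224); without co-culture 22 replicate 2, isolation 22 replicate 1 or isolation 45 replicate 2 its adjusted p was 0.0616, 0.0583 and 0.067, and with no gene filter 0.0507. CPT1A would join them without co-culture 22 replicate 3 (adjusted p = 0.0301), without co-culture 45 replicate 3 (0.0483) or without the co-culture 35 libraries in the fit (0.0441), and PLIN3 in a fit of these 4 groups alone (0.039).

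**Figure D3:**
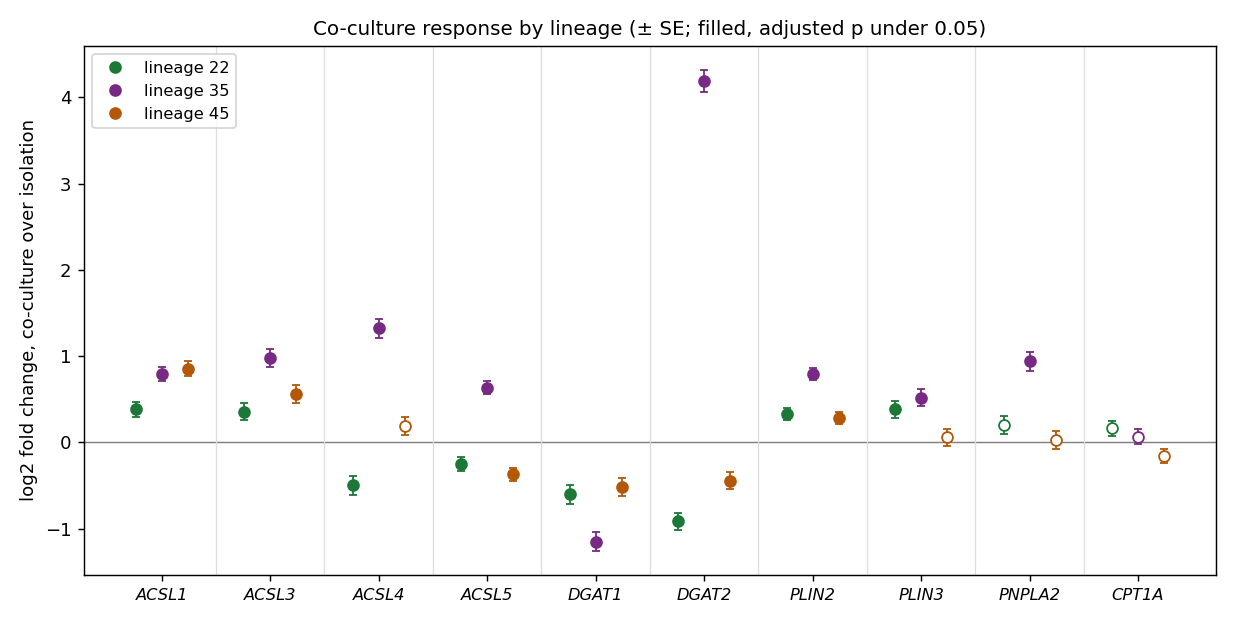
Log2 fold change of co-culture over isolation (y axis, ± SE) of each gene in lineages 22, 35 and 45, filled where the adjusted p was under 0.05. ACSL1, ACSL3 and PLIN2 are above 0 and DGAT1 below 0 in all 3 lineages, and DGAT2 in lineage 35 stands apart at 4.19.

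In isolation, lineage 35 was the low one for most of these genes. Isolation 22 against isolation 35 had 8 of 10 members called, 7 higher and 1 lower, where 63.6% of all genes were called, 32.2% higher and 31.4% lower. Isolation 35 against isolation 45 had 9 called, 1 higher and 8 lower, where 51.8% of all genes were called, 24.3% higher and 27.6% lower. These comparisons share the isolation 35 libraries with each other and with the co-culture response of lineage 35. DGAT2 was 23.7-fold higher in isolation 22 than in isolation 35 (log2 fold change 4.57 ± 0.13, adjusted p = 1.44e-16) and 18.7-fold lower in isolation 35 than in isolation 45 (−4.23 ± 0.13, adjusted p = 6.62e-16). PNPLA2 and ACSL5 were the next most different from isolation 45, with log2 fold changes of −0.81 ± 0.11 and −0.76 ± 0.08 in isolation 35 (adjusted p = 1.88e-06 and 6.4e-08). The calls of ACSL1 and CPT1A in that comparison were lost without some single libraries. For ACSL1 these were isolation 35 replicates 1 and 2 and isolation 45 replicates 1 and 2 (adjusted p of 0.137, 0.0689, 0.0791 and 0.0859). For CPT1A they were isolation 35 replicates 1, 2 and 3 and isolation 45 replicate 1 (0.0606, 0.0581, 0.0596 and 0.126).

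Isolation 22 against isolation 45 had 6 called, 4 higher and 2 lower, where 38.4% of all genes were called, 18.6% higher and 19.8% lower. ACSL1 was 1.63-fold higher in isolation 22 (log2 fold change 0.71 ± 0.08, adjusted p = 1.42e-06), ACSL3 was 1.43-fold higher (0.51 ± 0.10, adjusted p = 0.000494), and ACSL4 and DGAT2 were 1.3-fold and 1.27-fold higher. DGAT1 and PLIN3 were 1.24-fold and 1.25-fold lower in isolation 22. DGAT1 was not called without isolation 22 replicates 2 or 3 or any of the isolation 45 libraries (adjusted p of 0.0573, 0.0887, 0.0552, 0.064 and 0.0505). PLIN3 was not called without isolation 22 replicate 1 (0.052), nor ACSL4 without isolation 45 replicate 1 (0.0512).

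Among the co-culture groups the members lay closer together, as did all genes. The members' median log2 fold change without its sign was 0.218 in 22 against 35, 0.24 in 22 against 45 and 0.136 in 35 against 45. In isolation it was 0.608, 0.316 and 0.405 for the same pairs. Over all genes it was 0.239, 0.207 and 0.152 in co-culture, and 0.459, 0.258 and 0.352 in isolation. Co-culture 22 against co-culture 35 had 4 called, 2 higher and 2 lower, where 31.1% of all genes were called, 15.6% higher and 15.5% lower. Co-culture 22 against co-culture 45 had 6 called, 4 higher and 2 lower, where 25.2% of all genes were called, 13.2% higher and 12% lower. Co-culture 35 against co-culture 45 had 4 called, 3 higher and 1 lower, where 12.7% of all genes were called, 6.42% higher and 6.28% lower. ACSL4 was 1.79-fold lower in co-culture 22 than in co-culture 35 (log2 fold change −0.84 ± 0.11, adjusted p = 6.46e-06) and 1.45-fold higher in co-culture 35 than in co-culture 45 (0.54 ± 0.11, adjusted p = 0.00148). DGAT1 was 1.53-fold lower in co-culture 35 than in co-culture 45 (−0.61 ± 0.11, adjusted p = 0.000614). DGAT2 was 1.45-fold lower in co-culture 22 than in co-culture 35 (−0.54 ± 0.10, adjusted p = 0.00035). Its 1.32-fold higher level in co-culture 35 than in co-culture 45 (adjusted p = 0.00812) was not called without co-culture 35 replicate 1 (0.061).

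Each of the 6 calls between co-culture 22 and co-culture 45, for ACSL1, ACSL3, ACSL4, CPT1A, DGAT1 and PNPLA2, was between 1.18-fold and 1.31-fold and was lost in a fit of these 6 libraries alone (adjusted p from 0.0958 to 0.167) and without single libraries (0.0593 to 0.182), each of the 6 libraries ending at least 1 call. The replicate numbers may pair these 2 groups, and with the number as a block ACSL4 and CPT1A were each at an adjusted p of 0.0518. ACSL3 and CPT1A in co-culture 22 against 35 and ACSL5 in co-culture 35 against 45 were also lost in the fits of those libraries alone (adjusted p of 0.0534, 0.0848 and 0.132) and without single libraries. For ACSL3 these were co-culture 22 replicates 1 and 3 and co-culture 35 replicate 2 (0.0599 to 0.169), for CPT1A co-culture 22 replicates 1 and 2 and co-culture 35 replicates 1 and 3 (0.082 to 0.144), and for ACSL5 co-culture 35 replicates 1 and 3 and any co-culture 45 library (0.0545 to 0.182). The ACSL5 call was also lost with RLE scaling (0.0657). ACSL5 was called lower in co-culture 22 than in co-culture 35 without co-culture 22 replicate 3 (0.0467).

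In the second table, DGAT2 separated the lineages most. Its level was 11.2, 9.4 and 8.62 CPM in lineage 03, 0.655, 0.54 and 0.65 CPM in lineage 10 and 1.1, 0.778 and 1.14 CPM in lineage 13, against 14.4, 13.0 and 12.2 CPM in Pop. Lineages 10 and 13 were thus at 0.54 to 1.14 CPM and lineage 03 and Pop at 8.62 to 14.4 CPM, and no 2 of the 4 groups overlapped. Against Pop the log2 fold change was −0.44 ± 0.13 in lineage 03 (adjusted p = 0.0131, but 0.0534 without lineage 03 replicate 3), −4.42 ± 0.17 in lineage 10 (21.4-fold lower, adjusted p = 9.84e-10) and −3.71 ± 0.16 in lineage 13 (13.1-fold lower, adjusted p = 1.77e-09). The log2 difference of lineage 10 from lineage 13 was −0.71 ± 0.21 (adjusted p = 0.0204), and was lost without lineage 10 replicate 2 (0.0785) or without lineage 13 replicates 1 or 3 (0.0678 and 0.0787). All 3 comparisons against Pop share the Pop libraries.

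**Figure D4:**
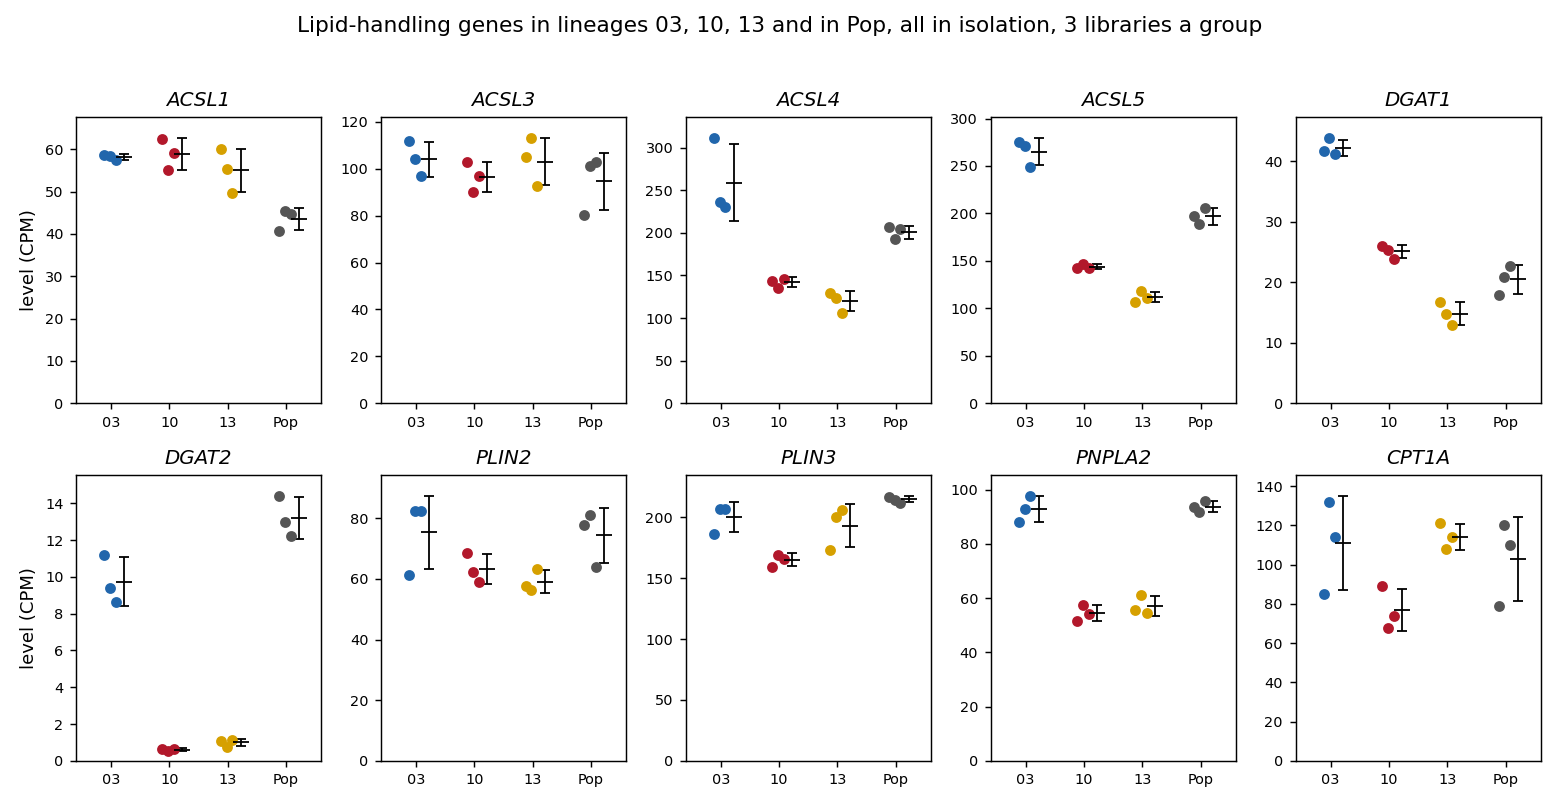
Level of each gene in CPM (y axis from 0) in lineages 03, 10 and 13 and in Pop, all grown in isolation, 1 point per library, with the mean and SD of 3 libraries beside them. DGAT2 lies at 0.54 to 1.14 CPM in lineages 10 and 13 and between 8.62 and 14.4 CPM in lineage 03 and Pop, and DGAT1 is highest in lineage 03.

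DGAT1 had another order. It was 41.7, 43.8 and 41.2 CPM in lineage 03, 26.0, 25.3 and 23.9 CPM in lineage 10 and 16.8, 14.7 and 13.0 CPM in lineage 13, against 17.9, 20.9 and 22.7 CPM in Pop. No groups overlapped, with lineage 03 highest and lineage 13 lowest. Against Pop the log2 fold change was 1.04 ± 0.10 in lineage 03 (2.06-fold, adjusted p = 3.01e-06) and −0.47 ± 0.10 in lineage 13 (adjusted p = 0.00255). In lineage 10 it was 0.29 ± 0.10 (adjusted p = 0.0379), a call lost with the replicate block (0.0613), under a stricter filter (0.0515), in a fit of lineage 10 and Pop alone (0.0536) and without any one lineage 10 library or without Pop replicates 1 or 2 (0.0534 to 0.113). The overlapping HSF1 had log2 fold changes against Pop of 0.51, 0.11 and −0.53 in lineages 03, 10 and 13 (adjusted p = 2.64e-05, 0.193 and 2.14e-05), of the same sign as those of DGAT1, and of 1.04 in lineage 03 and 0.64 in lineage 10 against lineage 13 (adjusted p = 2.88e-08 and 6.73e-06). What part shared reads have in these values was not tested. Per kilobase the ratio of DGAT2 to DGAT1 was 0.349 ± 0.05 in lineage 03, 0.0372 ± 0.00447 in lineage 10 and 0.104 ± 0.0271 in lineage 13, against 0.99 ± 0.208 in Pop (SD, n = 3 each).

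Of the ACSL genes, ACSL5 differed most between these lineages. Its level was 275, 271 and 249 CPM in lineage 03, 143, 147 and 142 CPM in lineage 10 and 107, 118 and 111 CPM in lineage 13, against 197, 189 and 206 CPM in Pop, with no overlap. The log2 fold changes against Pop were 0.43 ± 0.07, −0.45 ± 0.07 and −0.82 ± 0.07 in lineages 03, 10 and 13 (adjusted p = 0.000172, 0.000131 and 6.14e-07). ACSL4 had the same order, at 311, 236 and 230 CPM in lineage 03, 143, 135 and 146 CPM in lineage 10 and 129, 124 and 106 CPM in lineage 13, against 207, 193 and 205 CPM in Pop. Its log2 fold changes were 0.36 ± 0.11 in lineage 03 (adjusted p = 0.0143, but 0.0665 without lineage 03 replicate 1 and 0.0509 without Pop replicate 2), −0.51 ± 0.11 in lineage 10 (adjusted p = 0.00216) and −0.75 ± 0.11 in lineage 13 (adjusted p = 0.000102). ACSL1 was higher than in Pop in all 3 lineages, at 58.2 ± 0.645, 58.9 ± 3.68 and 55.0 ± 5.18 CPM in lineages 03, 10 and 13, against 43.5 ± 2.55 CPM in Pop (SD, n = 3 each; adjusted p = 0.000963, 0.000857 and 0.00456). ACSL3 did not differ detectably, with group means from 94.6 to 104 CPM and overlapping libraries.

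PNPLA2 was at 88.2, 92.8 and 97.7 CPM in lineage 03, 51.5, 57.4 and 54.2 CPM in lineage 10 and 55.6, 61.2 and 54.5 CPM in lineage 13, against 93.5, 91.7 and 95.8 CPM in Pop. Like DGAT2 it was low in lineages 10 and 13, with log2 fold changes against Pop of −0.78 ± 0.07 and −0.71 ± 0.07 (adjusted p = 2.35e-06 and 4.01e-06), and in lineage 03 its interval ran from −0.15 to 0.13. PLIN3 was lower than Pop in lineage 10, at 165 ± 5.35 CPM against 215 ± 2.49 CPM (adjusted p = 0.00128). PLIN2 was lower than Pop in lineage 13, at 59.1 ± 3.65 CPM against 74.4 ± 9.1 CPM (adjusted p = 0.0363), but not with the replicate block (0.058) or without lineage 13 replicates 1 or 2 or Pop replicates 1 or 2 (0.0986, 0.112, 0.059 and 0.134). CPT1A was called against Pop in none of the 3 by edgeR, with Pop libraries spread from 79.1 to 120 CPM. In lineage 10 its adjusted p was 0.0576, and it was called lower there by DESeq2 (0.0413) and without Pop replicate 1 or lineage 10 replicate 1 (0.0132 and 0.041). PLIN2 was called lower in lineage 10 without Pop replicate 3 (0.043).

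In counts, lineage 03 had 5 of 10 members called against Pop, 4 higher and 1 lower, where 48.7% of all genes were called, 23.2% higher and 25.5% lower. Lineage 10 had 7, 2 higher and 5 lower, where 42.3% were called, 18.8% higher and 23.5% lower. Lineage 13 had 7, 1 higher and 6 lower, where 45.2% were called, 21% higher and 24.2% lower. Between lineages, 03 was higher than 10 in 7 members and lower in 0, where 51.4% of all genes were called, 26.4% higher and 25% lower. Lineage 03 was higher than 13 in 6 and lower in 0, where 53.2% were called, 26.1% higher and 27.1% lower. Lineage 10 differed from 13 in 5, 2 higher and 3 lower, where 34.6% were called, 16.6% higher and 18% lower. Of these, CPT1A was 1.49-fold lower in lineage 10 than in lineage 13 (adjusted p = 0.0168) and 1.44-fold higher in lineage 03 than in lineage 10 (0.0184). The call against lineage 13 was lost without lineage 10 replicates 2 or 3 or lineage 13 replicate 1 (adjusted p from 0.0562 to 0.0773), and that of lineage 03 over 10 without replicates 2 or 3 of either (0.0508 to 0.102). PLIN3 was lower in lineage 10 than in lineage 13 (0.0313), but the call was lost without any one lineage 10 library or without lineage 13 replicates 2 or 3 (0.06 to 0.122). PLIN2 was higher in lineage 03 than in lineage 13 (0.0241), but not without lineage 03 replicates 2 or 3 or lineage 13 replicates 1 or 2 (0.0696 to 0.102). PLIN2 in lineage 03 over lineage 10 was called without lineage 03 replicate 1 (0.00995).

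Some members moved with the genes around them on the chromosome. For each, the median log2 fold change was taken over up to 25 tested protein-coding genes on each side. Around ACSL4 on chromosome X that median was −0.83 in lineage 22, 1.07 in lineage 35 and −0.05 in lineage 45 for co-culture over isolation, beside −0.50, 1.32 and 0.19 for ACSL4 itself. Against Pop it was 0.01, −0.93 and −0.97 in lineages 03, 10 and 13, beside 0.36, −0.51 and −0.75 for ACSL4. ACSL4 thus lay within 0.42 of its neighbours in each of these 6 comparisons. Around DGAT1 on chromosome 8 the median was 0.44, 0.02 and −0.55 in lineages 03, 10 and 13 against Pop, beside 1.04, 0.29 and −0.47 for DGAT1, and −0.06, −0.38 and −0.12 for co-culture over isolation in lineages 22, 35 and 45, beside −0.60, −1.15 and −0.52. Around DGAT2 it was −0.02 in lineage 10 and 0.04 in lineage 13 against Pop, beside −4.42 and −3.71 for DGAT2, and 0.40 in lineage 35 for co-culture over isolation, beside 4.19. Around PLIN2 and ACSL3 the medians for co-culture over isolation lay between −0.16 and 0.02 in all 3 lineages, and around ACSL1 they were −0.31, 0.26 and 0.12. Near ACSL5 they were −0.10, 0.49 and 0.03 in lineages 22, 35 and 45, beside −0.25, 0.64 and −0.37 for ACSL5. Its neighbours were at 0.669 in isolation 22 against 35 and −0.568 in isolation 35 against 45, beside 0.735 and −0.761. Against Pop they were at 0.206, 0.021 and −0.029 in lineages 03, 10 and 13, beside 0.425, −0.455 and −0.819 for ACSL5. Near PLIN3 the medians for co-culture over isolation were 0.368, 0.179 and −0.006, beside 0.383, 0.519 and 0.058 for PLIN3. For the response of lineage 22 minus that of lineage 45, the medians were −0.438 around ACSL1, −0.765 around ACSL4 and 0.01 around DGAT2. The genes themselves had −0.472, −0.687 and −0.473. DNA copy number was not measured, and its part in these values was not tested.

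**Figure D5:**
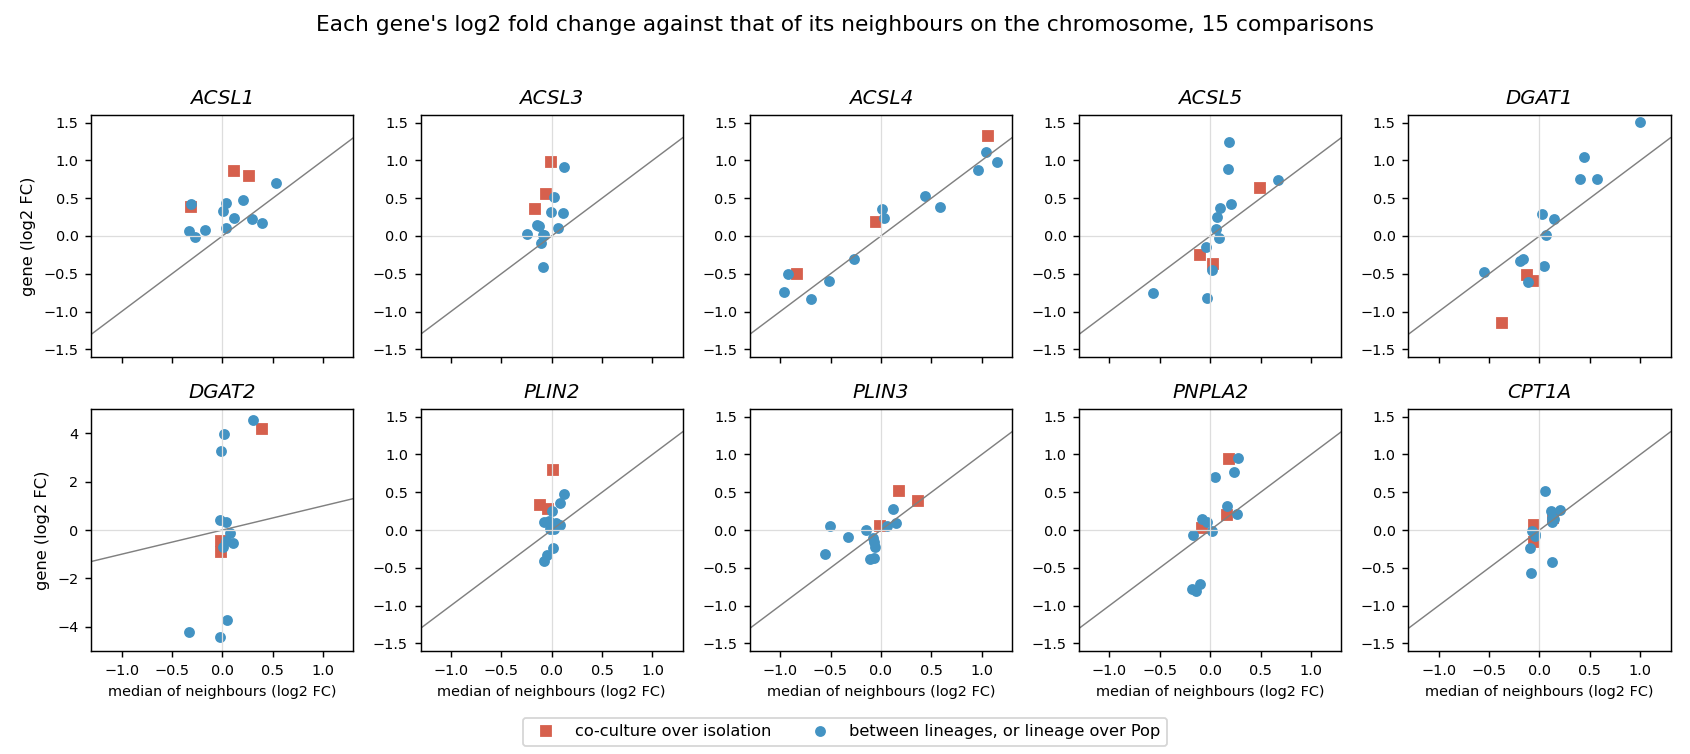
Log2 fold change of each gene (y axis; DGAT2 has a wider scale) against the median of its tested protein-coding neighbours (x axis), 1 point per comparison, with squares for co-culture over isolation, circles for comparisons between lineages or with Pop, and the line of equality. Points of ACSL4 follow the line, while those of DGAT2 reach −4.42 and 4.57 with no neighbour median beyond 0.40.

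Other genes of these pathways were counted from lists that leave out the 10 members; the shares of all genes called are those given above for each lineage. Of 14 tested further acyl-CoA synthetases and fatty acid carriers, 9 rose and 0 fell in co-culture 22, 8 rose and 3 fell in co-culture 35, and 7 rose and 1 fell in co-culture 45. Their median log2 fold changes were 0.49, 0.34 and 0.35. ACSS2, which makes acetyl-CoA from acetate in the cytosol, had the largest rise in lineages 22 and 45, at 135 ± 22.2 CPM in co-culture 22 and 48.9 ± 0.364 CPM in isolation 22 (adjusted p = 4.25e-08) and 95.4 ± 16.2 CPM in co-culture 45 and 43.9 ± 2.87 CPM in isolation 45 (adjusted p = 2.3e-06). In lineage 35 the mitochondrial ACSS3 rose to 24.1 ± 0.787 CPM in co-culture, against 0.648 ± 0.067 CPM in isolation, and ACSS1 fell to 3.45 ± 0.581 CPM in co-culture, against 18.2 ± 1.55 CPM in isolation (SD, n = 3 each).

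Of 19 tested genes of glycerolipid and sterol ester synthesis, 8 rose and 3 fell in co-culture 22, 8 rose and 5 fell in co-culture 35, and 2 rose and 3 fell in co-culture 45, with medians of 0.21, 0.09 and 0.03. The phosphatidate phosphatase gene LPIN3 had the largest fall in each, with log2 fold changes of −1.19 ± 0.20, −1.50 ± 0.21 and −1.09 ± 0.20 (adjusted p = 9.63e-05, 6.58e-06 and 0.000443). Largest rises were those of GPAT2, which starts glycerolipid synthesis at mitochondria, in lineage 22 (0.86 ± 0.10), LPCAT1, which remodels phosphatidylcholine, in lineage 35 (1.36 ± 0.08) and LPIN1 in lineage 45 (0.73 ± 0.16).

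Of 16 tested lipid droplet proteins other than PLIN2 and PLIN3, 4 rose and 2 fell, 4 rose and 3 fell, and 5 rose and 3 fell in lineages 22, 35 and 45, with medians of 0.10, 0.10 and 0.12. The lipid transfer protein VPS13C had the largest fall in lineages 22 and 35 (log2 fold change −0.90 ± 0.16 and −1.12 ± 0.16), and CAV1, the caveolin that also reaches droplets, in lineage 45 (−0.82 ± 0.10). METTL7A had the largest rise in lineages 22 and 45 (1.02 ± 0.21 and 0.64 ± 0.21) and the seipin gene BSCL2, needed to form droplets, in lineage 35 (0.84 ± 0.19).

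Of 18 tested genes of lipolysis and droplet turnover, 8 rose and 5 fell, 12 rose and 2 fell, and 6 rose and 3 fell, with medians of 0.06, 0.62 and −0.04. ABHD5, the activator of the PNPLA2 enzyme, had the largest fall in lineage 22, at 52.8 ± 5.22 CPM in co-culture and 72.2 ± 4.37 CPM in isolation (SD, n = 3 each, adjusted p = 0.000357). LIPE, the hormone-sensitive lipase, had the largest rise there, at 7.21 ± 0.554 CPM in co-culture and 3.98 ± 0.31 CPM in isolation. LPL, which frees fatty acids from lipoproteins outside the cell, had the largest rise in lineage 45, at 6.61 ± 0.565 CPM in co-culture and 1.17 ± 0.192 CPM in isolation (adjusted p = 2.87e-09). In lineage 35 the diacylglycerol lipase gene DAGLA rose 4.5-fold (adjusted p = 1.39e-11).

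Of 28 tested genes of fatty acid oxidation, 14 rose and 4 fell, 10 rose and 7 fell, and 8 rose and 5 fell, with medians of 0.23, 0.16 and 0.12. ECI1 and HADHA, enzymes of the mitochondrial spiral, had the largest rises in lineages 22 and 45 (log2 fold change 0.82 ± 0.10 and 0.49 ± 0.08, adjusted p = 1.77e-06 and 4.23e-05). Of the CPT1A paralogs, CPT1C rose 3.98-fold in lineage 35, and CPT1B had the largest fall in each lineage (2.66-fold, 8.59-fold and 2.69-fold lower in lineages 22, 35 and 45), a value that is uncertain because CPT1B shares a read-through transcript with its neighbour CHKB. Of 17 tested PPAR regulators and targets, 8 rose and 3 fell, 8 rose and 7 fell, and 5 rose and 3 fell, with medians of 0.07, 0.21 and 0.11. The mitochondrial carrier UCP2 had the largest rise in lineages 22 and 45 (3.33-fold and 1.46-fold), and ANGPTL4, a PPAR target that inhibits LPL, in lineage 35, at 35.6 ± 1.62 CPM in co-culture and 2.98 ± 0.268 CPM in isolation. TXNIP had the largest fall in lineages 22 and 45 (1.81-fold and 1.74-fold lower) and PPARD in lineage 35 (2.19-fold lower).

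Across the 6 group means of the first table, ACSL3 and PLIN2 had the most alike log2 levels of any pair of members (r = 0.94), followed by ACSL5 and DGAT2 (0.93), and ACSL1 and DGAT1 the most opposite (−0.91). Over the 4 group means of the second table the same pairs had r of −0.18, 0.84 and 0.39. These are descriptions over few points that share libraries. Among 10709 genes ranked, those most like ACSL4 over the 6 means were CXorf40B (r = 0.9995) and HPRT1 (0.9976), both on the X chromosome as ACSL4 is, with r of 0.93 and 0.9 over the 4 means of the second table. Those most like DGAT2 were BTG1 (0.9976 and 0.87) and MAN2A1 (0.9972 and 0.76), and LAT2 was most like PNPLA2 (0.9991 and 0.58). For PLIN2 they were DEF8 (0.9988 and −0.37) and ESF1 (0.9977 and 0.04), for ACSL1 METTL15 (0.9954 and 0.43) and PIGC (0.9799 and 0.31), and for PLIN3 POR (0.9922 and 0.84) and CS (0.9898 and 0.77). For ACSL5 they were LNPEP (0.9908 and 0.73) and SEMA3C (0.9865 and 0.46), for ACSL3 TMEM18 (0.9936 and −0.73) and YME1L1 (0.9874 and −0.41), for DGAT1 SPOCD1 (0.9949 and 0.65) and TMOD2 (0.9906 and −0.5), and for CPT1A TNS2 (0.974 and −0.21) and TNK2 (0.9738 and −0.13). Over the second table r was 0.76 or more for the genes named with ACSL4, DGAT2 and PLIN3.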

How the data were processed

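Gene expression was measured by paired 75 nt sequencing of stranded mRNA libraries from 500 ng RNA, per the labels' protocols. Per the submitters' processing notes, STAR 2.6.1d was used by the authors, as was Salmon 1.4.0, and the genome build was GRCh38 (hg38). The annotation and the tool that scaled the values are not given in the sources used here. The authors deposited 2 separately made tables of estimated counts that are scaled by transcript length but not by depth, so comparisons stayed within a table. Co-culture cells were sorted and extracted with a different kit from isolation cells, per the labels' protocols.

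After rounding, edgeR 4.0.16 (with limma 3.58.1 in R 4.3.3) was run with TMM scaling, filterByExpr and the robust quasi-likelihood test, fitting the groups of each table together, and Benjamini-Hochberg adjustment over all 14570 genes tested in the first table and 14638 in the second, called at 0.05. A standard error is the size of a log2 fold change divided by the square root of its F statistic. CPM are TMM-scaled, and the log2 levels used for likeness have a prior count of 2. TMM factors ran from 0.926 to 1.07 and from 0.946 to 1.04, with a biological coefficient of variation of 10.4% in both tables. Replicates differed by a chi-square per gene of 5.21 to 74.9, so none was a copy of another. The calculation was tested on simulated counts. Gene positions and transcript lengths are from GENCODE and promoter sequences from RefSeq (GRCh38.p14). No column of the tables lacked a sample.

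All 10 members are named. From each pathway list and co-culture comparison, the called gene with the largest rise and the one with the largest fall among genes of at least 5 CPM in a group are named, and for each member the 2 genes with the highest Pearson r over the 6 group means of the first table; one of these genes is not reported here. The members and lists were chosen with earlier results of these data known. Replicate numbers were checked for pairing by the correlation of how libraries of 1 number deviate from their groups: of 21 pairs of groups, co-culture 22 and co-culture 45 had all 3 correlations above 0.1 (0.36, 0.25 and 0.17), which the labels do not explain. Alternatives were RLE scaling, DESeq2 1.42.0, no filter, a filter of 5 CPM in 3 libraries, fits of the compared groups alone, a replicate block, leaving out each library, a 2-fold minimum and a fit without the co-culture 35 libraries.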

Additional observations from a re-analysis of the deposited data

Results flagged for a closer look

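By the test of the interaction over lineages 22, 35 and 45 (edgeR, adjusted p), the co-culture response differed between lineages for ACSL1 (0.00371), ACSL3 (0.00406), ACSL4 (1.51e-08), ACSL5 (2.58e-07), DGAT1 (0.0029), DGAT2 (3.24e-15), PLIN2 (0.000179), PLIN3 (0.0202) and PNPLA2 (6.68e-05). All of these include the libraries labelled co-culture 35, which correlated more with isolation 45 than with isolation 35; what part that has in the result was not tested. Between lineages 22 and 45 alone, the response of lineage 22 minus that of lineage 45 on the log2 scale was −0.472 for ACSL1, −0.687 for ACSL4 and −0.473 for DGAT2. The median over their neighbours on the chromosome was −0.438, −0.765 and 0.01 for the same difference.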

How the results depend on the processing

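Of 2260 recomputed values over 170 member results, 2090 kept their direction and side of the threshold, 111 lost and 19 gained the call, and 40 changed sign, 0 of them called under either setting. In co-culture against isolation the counts of members called were 9 in lineage 35 and 6 in lineage 45 under every scaling, filter, block and left-out library; in lineage 22 the count was 8, but 9 in the fit of its groups alone and in the fit without the co-culture 35 libraries, and 7 to 9 with a library left out. With a 2-fold minimum, 4 members were called in 03 against 13, 3 in co-culture 35 over isolation and 1 each in isolation 22 against 35, 35 against 45, 03, 10 and 13 against Pop, and 03 against 10; it was 0 for co-culture over isolation in lineages 22 and 45, their difference in response, isolation 22 against 45, the 3 co-culture pairs and 10 against 13. In fits of the compared groups alone the count was 2 rather than 4 for co-culture 22 against 35 and 0 rather than 6 for co-culture 22 against 45, where all-gene calls were 1805 rather than 3669; fewer libraries are in those fits. Leaving out a library gave 2 to 4 for co-culture 22 against 35, 1 to 4 for 22 against 45, 2 to 4 for co-culture 35 against 45 and 2 to 4 for isolation 10 against 13. The replicate block changed 4 member calls: ACSL4 and CPT1A in co-culture 22 against 45, DGAT1 in 10 against Pop (adjusted p = 0.0613) and PLIN2 in 13 against Pop (0.058). Of 456 list counts, 425 stayed within 1.5 times and 31 did not.

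Sign changes were all of log2 fold changes near 0. ACSL3 in co-culture 35 against 45 was −0.008 with RLE, −0.006 with the stricter filter and −0.008 with DESeq2; PNPLA2 in 03 against Pop was 0.003 with RLE and 0.004 with DESeq2; ACSL5 in isolation 22 against 45 was 0.008 with the stricter filter, and PLIN3 in co-culture 22 against 45 was −0.001 with no filter. With a library left out, the ranges in co-culture 22 against 35 were −0.001 to 0.135 for ACSL1 and −0.01 to 0.049 for PLIN2, in co-culture 22 against 45 −0.036 to 0.024 for PLIN3, and in co-culture 35 against 45 −0.068 to 0.117 for ACSL3 and −0.111 to 0.064 for CPT1A. In co-culture against isolation they were −0.034 to 0.141 for CPT1A in lineage 35 and −0.087 to 0.139 for PNPLA2 in lineage 45. In isolation they were −0.057 to 0.179 for PLIN3 in 22 against 35, −0.034 to 0.065 for DGAT1 in 35 against 45, −0.064 to 0.025 for ACSL1 in 03 against 10, and −0.058 to 0.079 for ACSL3, −0.2 to 0.108 for CPT1A and −0.025 to 0.1 for PLIN3 in 03 against 13. Against Pop they were −0.074 to 0.103 for ACSL3 in 10, −0.058 to 0.259 for CPT1A, −0.067 to 0.147 for PLIN2 and −0.049 to 0.025 for PNPLA2 in 03, and −0.027 to 0.275 for CPT1A in 13. The cause of these changes was not tested. At these depths the standard errors of the members' log2 fold changes ran from 0.066 to 0.215. They are not the smallest detectable difference, since a call needed a change well above its standard error. PNPLA2 in co-culture 22 over isolation 22, at 0.205 ± 0.104, and CPT1A in lineage 10 against Pop, at −0.422 ± 0.167, were not called.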
